A study of Mus musculus with 9 samples.

Results

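The purine ectoenzymes and receptors are a set of 7 genes for extracellular nucleotide and adenosine biology, listed by name: Nt5e, Entpd1, Cd38, Ada, Adora2a, P2rx4 and P2ry10. Every probe set annotated to one of them alone was taken. A total of 5 of the 7 genes had such probe sets, 12 in all of the 45037 probe sets on the array that are not controls, and Cd38 and Adora2a were not analysed here. The genes were chosen with their signals on these KO, HET and WT arrays already known, so their levels and differences are given as a description, with no p-value. Whether the fit across all genes called a member is stated, but nothing is read from it. Transcripts were measured on 9 Affymetrix Mouse 430 2.0 arrays of germinal center (GC) B cells, which arise in the follicle after antigen contact and there undergo selection for better antibodies. The 3 genotypes were FOXO1f/f, Cg1-Cre (KO, 2 floxed alleles), FOXO1f/+, Cg1-Cre (HET, 1 floxed allele) and FOXO1+/+, Cg1-Cre (WT), with 3 arrays each and, per the labels, 1 animal per array. All groups, WT included, carried Cg1-Cre, a recombinase expressed from the antibody IgG1 locus once B cells are activated, so deletion is expected in GC B cells and not in every cell of the animal. All mice were 10 weeks old, were injected with sheep red blood cells on days 0 and 5 and gave splenic cells on day 12, sorted as B220 high, PNA high and CD95 high.

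Cells that are stressed, dying or activated release ATP, and ectoenzymes on the cell surface remove its phosphates stepwise. CD39, encoded by Entpd1, converts ATP and ADP to AMP, and CD73, encoded by Nt5e, converts AMP to adenosine. Adenosine deaminase, encoded by Ada, turns adenosine into inosine, and adenosine that remains can act on receptors such as the one encoded by Adora2a, which raises cyclic AMP. Cd38 encodes a surface enzyme that consumes NAD. P2rx4 encodes an ion channel opened by extracellular ATP. P2ry10 encodes a receptor of the same protein superfamily as the P2Y nucleotide receptors, whose known ligand is the lipid lysophosphatidylserine. In lymphocytes CD73 is known as a marker of subsets of GC and memory B cells, and loss of ADA causes severe immunodeficiency.

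Of the genes with probe sets, Nt5e and Ada stood lower in KO cells than in WT cells, P2rx4 stood slightly higher, P2ry10 overlapped between all genotypes, and Entpd1 stayed below the median signal of every array. RefSeq (GRCm38.p6) gave promoter windows for 6 of the 7 genes, each with 250 bases before and 50 bases from the annotated start. The upstream parts for Nt5e and Ada are shown because both genes stood lower in every KO array than in any HET or WT array. Over all 10331 genes tested, the KO and WT arrays did not overlap for 29.7%, the KO and HET arrays for 27.7% and the HET and WT arrays for 9.82%. The upstream parts lie at chr9:88327359-88327608 on the plus strand and at chr2:163750240-163750489 on the minus strand. Capitals mark GC boxes (GGGCGG on either strand, overlapping matches joined), a motif chosen after the sequences had been seen.
Nt5e: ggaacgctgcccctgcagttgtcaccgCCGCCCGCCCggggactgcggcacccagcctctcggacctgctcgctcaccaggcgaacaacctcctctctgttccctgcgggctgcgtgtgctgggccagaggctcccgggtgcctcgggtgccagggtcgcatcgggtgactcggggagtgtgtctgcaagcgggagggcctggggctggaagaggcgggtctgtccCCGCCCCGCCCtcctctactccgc
Ada: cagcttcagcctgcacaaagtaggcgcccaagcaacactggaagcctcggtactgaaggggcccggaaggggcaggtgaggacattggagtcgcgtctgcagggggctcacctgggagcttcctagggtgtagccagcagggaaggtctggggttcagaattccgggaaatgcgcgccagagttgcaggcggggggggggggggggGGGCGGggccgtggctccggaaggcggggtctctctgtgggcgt
The FOXO element GTAAACA and the related CAAAACA, searched on both strands, had no match in any of the 8 windows of these genes. Over all 32851 windows of this length, 3.65% held GTAAACA and 6.28% held CAAAACA. GC boxes were found in the windows of Nt5e (4 matches), Ada (2) and P2rx4 (1), and in no window of Entpd1, Cd38 or P2ry10. Over all windows, 35.7% held at least 1. The Ada match at bases 6 to 11 and the P2rx4 match lie past the start, outside the upstream parts. The absence of these letters from 300 bases says nothing of FOXO1 binding elsewhere.

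Some facts of the whole set of arrays bear on the values. Foxo1 itself, by its brightest probe set, averaged 1034 ± 335 in KO, 3564 ± 77.9 in HET and 5449 ± 159 in WT (SD, n = 3), which puts KO at 19.0% and HET at 65.4% of WT. The median signal of an array lay between 47.4 and 48.0 in KO, between 44.0 and 45.0 in HET and between 42.9 and 44.8 in WT. A scaling that sets these medians equal moved the median KO vs WT change of all genes from 0.01 to -0.11 on the log2 scale. Among B cell transcripts, Ms4a1, which encodes CD20, was abundant in all groups. It lay between 11249 and 12932 in KO, between 11121 and 11309 in HET and between 11300 and 11335 in WT. Pax5 was dimmer, with means of 122 in KO, 118 in HET and 126 in WT. Bcl6, the defining factor of GC B cells, lay between 9214 and 9685 in KO, between 8924 and 9213 in HET and between 8121 and 10699 in WT. In KO vs WT limma called 11.9% of all genes tested, 6.1% higher and 5.83% lower. That share stands beside the marker counts that follow. Of the 6 B cell markers tested, 1 was called in KO vs WT: Ptprc, which encodes the sorted antigen B220, rose (0.19, limma adjusted p = 0.0434). Of the 7 GC B cell markers tested, 3 were called in KO vs WT: Fas, which encodes the sorted antigen CD95, rose (0.30, limma adjusted p = 0.0131), and Rgs13 (-0.25, limma adjusted p = 0.0143) and Gcsam fell. Gcsam, which encodes a GC B cell signaling adaptor, averaged 1465 ± 74.3 in KO, 4119 ± 911 in HET and 3770 ± 253 in WT (SD, n = 3), a KO vs WT change of -1.36 (limma adjusted p = 1.47e-05). Of 14 T cell markers, 8 were dimmer than the median on every array and 0 of the 4 tested were called in KO vs WT by limma (1 at an unadjusted p under 0.05). The summed signal of 17 myeloid markers was 2369 to 3061 in KO, 1013 to 2468 in HET and 733 to 1733 in WT, while 8 of the 17, among them Itgam and Cd14, were dimmer than the median on every array, and 4 of the 9 tested rose in KO vs WT. The summed signal of 8 marginal zone B cell markers was 16738 to 19279 in KO, 11553 to 12185 in HET and 11354 to 11900 in WT, and all 8 rose in KO vs WT. The summed signal of 7 plasma cell markers was 25413 to 27800 in KO, 21015 to 22495 in HET and 20332 to 21664 in WT, and 4 of the 6 tested (Prdm1, Sdc1, Irf4 and Slpi) rose in KO vs WT. Slpi averaged 8493 in KO and 3940 in WT, and Irf4 4794 in KO and 3145 in WT. Xbp1 (-0.05, limma adjusted p = 0.758) and Jchain (-0.06, limma adjusted p = 0.504) were not called, and Tnfrsf17 was too dim to be tested. The sums of the marginal zone and plasma cell lists did not overlap between KO and the other genotypes, while the myeloid sums of KO and HET did. The sum of the memory and naive B cell markers was 3155 to 3764 in KO, 4091 to 4621 in HET and 3520 to 3950 in WT. Of the 8 tested, 2 rose in KO vs WT, Ccr6 (1.00, limma adjusted p = 0.00864) and Hhex (0.53, limma adjusted p = 0.0175). Another 2 fell, Pdcd1lg2 (-0.96, limma adjusted p = 0.0104) and Fcer2a (-0.76, limma adjusted p = 2.06e-05), and 4 were not called. In a population of sorted cells, fewer cells that express a gene and less RNA per cell cannot be told apart.

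Nt5e, the gene for the enzyme that makes adenosine, differed most within the set. Its brightest probe set gave signals of 414, 505 and 356 on the KO arrays, 1130, 1239 and 1147 on the HET arrays and 1563, 1467 and 1628 on the WT arrays. The 3 groups did not overlap on this probe set, with KO lowest and HET in between. Over all genes tested, KO and WT arrays did not overlap for 29.7% and HET and WT arrays for 9.82%. Nt5e was not called in HET vs WT. The means were 425 ± 75.2 in KO, 1172 ± 58.6 in HET and 1553 ± 80.7 in WT (SD, n = 3), so that KO stood at 27.4% and HET at 75.5% of WT. On the scale of log2(signal + 2.09) the difference was -1.88 (SE 0.12) for KO vs WT, -0.41 (SE 0.12) for HET vs WT and -1.47 (SE 0.12) for KO vs HET. These 3 differences share arrays and are not independent of each other. Of all 10331 genes tested, 22, Nt5e included, had a KO vs WT difference as low or lower. The HET level lay 0.53 (SE 0.10) above the midpoint of KO and WT on that log2 scale, that is, nearer to WT.

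The other probe sets of Nt5e were near the array median and gave less. One gave 1.69, 20.7 and 5.22 in KO, 57.7, 45.6 and 40.3 in HET and 51.0, 51.4 and 78.5 in WT. Its KO arrays were below the array median and below every HET and WT array, which makes WT at least 1.23-fold higher than KO against that floor. Its HET and WT arrays overlapped. The remaining probe set gave 23.3, 38.4 and 40.7 in KO, 46.2, 44.7 and 40.3 in HET and 47.5, 27.1 and 57.1 in WT, with overlapping groups. With the mean of the 3 probe sets the KO vs WT difference was -1.68 and the HET vs WT difference -0.22.

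**Figure D1:**
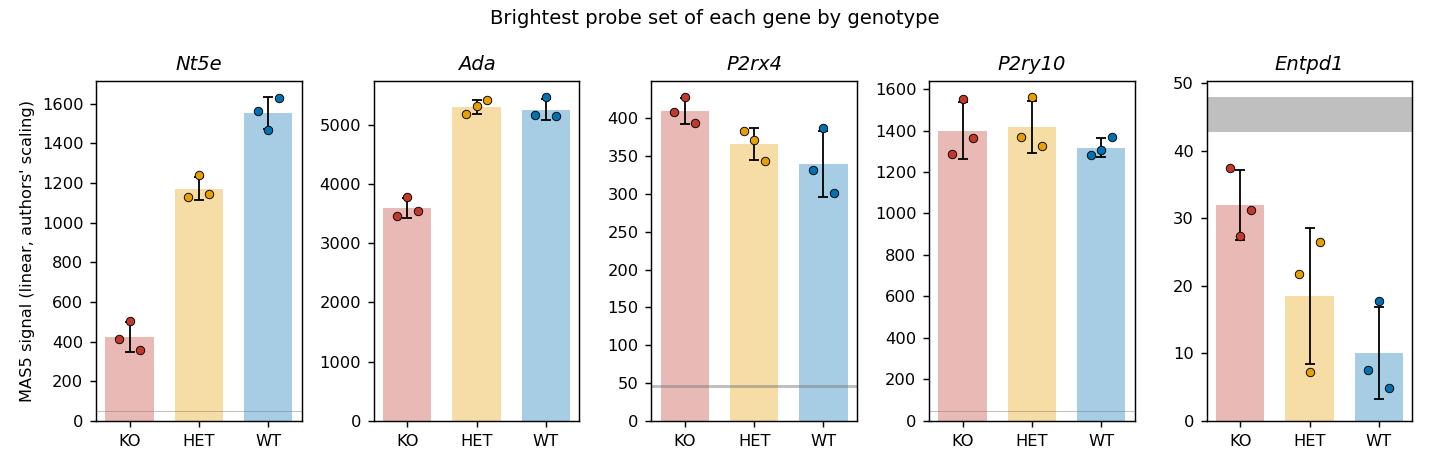
MAS5 signal (linear axis from 0) of the brightest probe set of Nt5e, Ada, P2rx4, P2ry10 and Entpd1 in KO, HET and WT arrays; points are arrays, bars the mean of 3 arrays, error bars the SD, and the grey band the range of array medians. Nt5e is lowest in KO, with HET between KO and WT (mean 425 in KO, 1172 in HET, 1553 in WT). Ada is low in KO alone (3596, against 5306 in HET and 5258 in WT), and Entpd1 lies under the band throughout.

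Ada, the gene for the enzyme that removes adenosine, was lower in KO and close to WT in HET. Its only probe set gave 3455, 3788 and 3546 in KO, 5184, 5320 and 5415 in HET and 5161, 5466 and 5146 in WT. The KO arrays lay below all others, and the HET and WT arrays overlapped. The means were 3596 ± 172 in KO, 5306 ± 116 in HET and 5258 ± 181 in WT (SD, n = 3), which puts KO at 68.4% and HET at 101% of WT. The log2 difference was -0.55 (SE 0.05) for KO vs WT, 0.01 (SE 0.05) for HET vs WT and -0.56 (SE 0.05) for KO vs HET. The HET level lay 0.29 (SE 0.05) above the midpoint of KO and WT. With array medians set equal, the KO vs WT difference of Ada was -0.67. Whether the HET position of Nt5e differs from that of Ada was not tested.

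In the fit across all genes, 2 of the 4 members that passed the filter on dim probe sets, Nt5e and Ada, were called lower in KO vs WT, where limma called 11.9% of all genes (6.1% higher and 5.83% lower). The same 2 were called lower in KO vs HET (8.99% of all genes called), and 0 of 4 in HET vs WT (0.00968% called). Since the genes were chosen with these values in view, nothing is read from these counts.

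P2rx4, the gene for the ATP-gated channel, had a small difference of the opposite sign. Its brightest probe set gave 408, 428 and 393 in KO, 384, 372 and 343 in HET and 332, 387 and 301 in WT. Every KO array lay above every HET and WT array, by a narrow margin, and HET overlapped WT. The log2 difference was 0.28 (SE 0.12) for KO vs WT and 0.16 (SE 0.12) for KO vs HET, and it was 0.16 for KO vs WT with array medians set equal. The second probe set gave 111, 124 and 120 in KO, 74.5, 70.9 and 92.5 in HET and 84.7, 53.7 and 101 in WT. The third gave 55.8, 56.5 and 66.2 in KO, 55.6, 64.5 and 49.0 in HET and 49.4, 45.7 and 39.3 in WT. On these 3 probe sets the KO arrays lay above all WT arrays. The dimmest probe set went the other way, with 16.9, 22.4 and 13.6 in KO, 24.2, 35.2 and 21.6 in HET and 31.4, 24.1 and 28.1 in WT, below the median of every array. Myeloid cells also express P2rx4. The myeloid marker sum was higher in KO than in WT and overlapped between KO and HET, and its part in this difference was not tested.

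P2ry10, the lysophosphatidylserine receptor gene on chromosome X, had no separation by genotype. Its only probe set gave 1285, 1550 and 1362 in KO, 1367, 1561 and 1324 in HET and 1281, 1304 and 1367 in WT. The 3 groups overlapped in every pairing. The log2 difference was 0.08 (SE 0.09) for KO vs WT and 0.10 (SE 0.09) for HET vs WT, and the first turned to -0.037 with array medians set equal. Xist, which marks female animals, was at or above the array median on 2 of 3 arrays in each group, so the genotypes did not differ in that count.

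Entpd1, the gene for CD39, could not be measured well. Its brightest probe set gave 37.5, 27.3 and 31.2 in KO, 21.8, 7.20 and 26.5 in HET and 7.48, 17.8 and 4.86 in WT. The KO arrays lay above the others, but every value was below its array's median, so no fold is given. The other 2 probe sets ranged from 12.4 to 25.6 and from 1.95 to 26.7, with overlapping groups. CD39 is also carried by macrophages and marginal zone B cells, which the sort for B220, PNA and CD95 high cells is meant to leave out. Their marker sums are given above, and their part in these values was not tested.

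**Figure D2:**
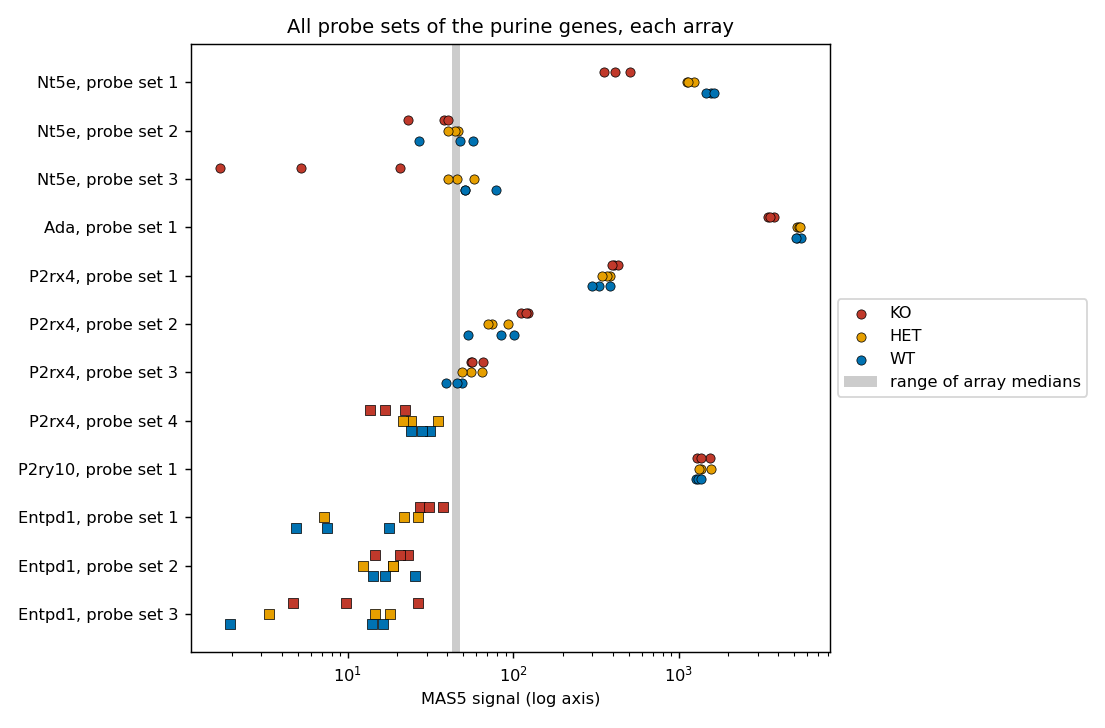
MAS5 signal (log axis) of all 12 probe sets on each array, with KO, HET and WT rows from top to bottom within a probe set; circles are the 8 probe sets that passed the filter on dim signals, squares the 4 that did not, and the grey band is the range of array medians. KO lies below HET and WT on the brightest Nt5e probe set and on Ada. On 1 other Nt5e probe set KO also lies below, but under the band, so the width there is not firmly measured. On P2rx4 KO lies above WT on 3 probe sets and below it on the dimmest. No separation is seen on P2ry10.

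The genes most like each member were found as those with the nearest log2 profile, by the root mean square difference over the 9 arrays after centring each gene on its own mean. Left out were the members, sex chromosome genes, genes without a chromosome, unnamed gene models and antibody genes, which left 9493 genes for comparison. For Nt5e these were Ptgr1, which encodes a reductase of prostaglandins and leukotrienes (0.14), and Thbd, which encodes thrombomodulin (0.14), against a root mean square of 0.82 for Nt5e about its own mean. Ptgr1 gave 223, 283 and 199 in KO, 640, 551 and 537 in HET and 698, 786 and 912 in WT, again KO below HET below WT with no overlap. Thbd gave 23.0, 26.5 and 21.7 in KO, below the array median, 86.1, 85.1 and 70.8 in HET and 106, 82.3 and 97.0 in WT, with HET and WT overlapping. Since its KO signals were dim, the size of the KO difference of Thbd, and so its distance from Nt5e and its place, are not firmly measured. Of the 9493 genes compared, 5 lay within 0.2 of Nt5e. For Ada the nearest were Tmem243 (0.04), with means of 3561 in KO, 5175 in HET and 5097 in WT, and Eaf2 (0.06), a transcription elongation gene, with 3915 in KO, 5491 in HET and 5459 in WT. Within 0.2 of Ada lay 732 genes. P2rx4 was nearest to Dnaaf1 and Ap2a2 (0.06 each) and P2ry10 to Neil3 (0.04) and Grk6 (0.05), but 4641 and 5865 genes lay within 0.2 of them, so these neighbours carry little.

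**Figure D3:**
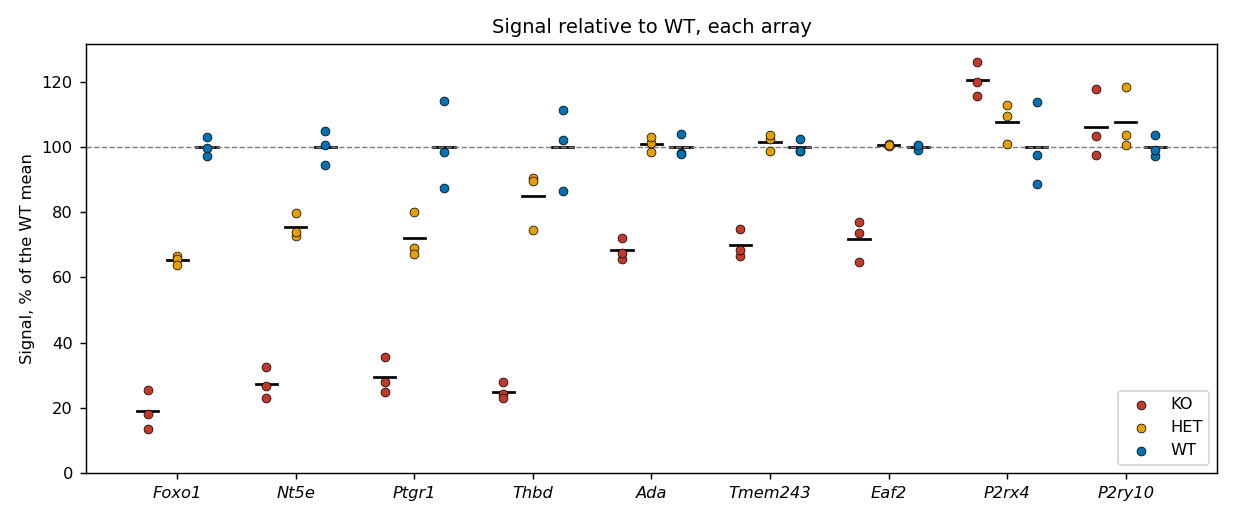
Signal on each array as a percentage of the gene's own WT mean (linear axis), with KO, HET and WT from left to right, for Foxo1, the purine genes that passed the filter and the nearest profiles of Nt5e (Ptgr1, and Thbd, which is below the array median in KO) and Ada (Tmem243, Eaf2); points are arrays and black lines means. Nt5e stands at 27.4% in KO and 75.5% in HET, while Ada stands at 68.4% in KO and 101% in HET.

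The rest of the pathway was read from lists of 98 genes made from general knowledge of purine biology, with earlier results of these data known. Of these, 86 had a probe set of a single symbol, and 51 passed the filter. In KO vs WT, 7 of the 51 rose, 5 fell and 39 did not pass (limma, adjusted p under 0.05), with a median log2 change of -0.02, against 0.01 over all genes. That is 23.5% called, against 11.9% of all genes. Since earlier results were known when the lists were made, nothing is read from this share, nor from the counts of single lists below. With array medians set equal, 6 rose and 13 fell. The count of 12 fell to 7 without KO replicate 2 and to 7 without WT replicate 2. In KO vs HET, where limma called 8.99% of all genes, 4 rose and 4 fell. In all, 4 were called with the mean of probe sets and 5 without HET replicate 1. In HET vs WT 0 were called by limma (1 at an unadjusted p under 0.05). Few receptor genes could be tested: 0 of 7 P2Y and 1 of 6 P2X receptor genes passed the filter on dim signals. Of 3 further adenosine receptor genes, Adora3 lay between 7.80 and 23.8 over all arrays and did not pass, and the other two were not analysed here. Of the 35 genes with a probe set that were not tested, 29 were dimmer than the median on every array. P2rx7, the tested P2X gene, averaged 49.5 ± 6.56 in KO, 45.9 ± 12.2 in HET and 57.3 ± 8.98 in WT (SD, n = 3) and did not pass in KO vs WT (-0.20, limma adjusted p = 0.707).

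Among enzymes that handle adenosine inside the cell, Adk, the gene for the kinase that returns adenosine to AMP, fell in KO. It gave 3861, 3507 and 3327 in KO, 4440, 4868 and 5092 in HET and 4596, 4523 and 4839 in WT, with all KO arrays below the others. The log2 change was -0.39 (SE 0.07, limma adjusted p = 0.00285) for KO vs WT and -0.43 (limma adjusted p = 0.0018) for KO vs HET. The second call was lost with the mean of its probe sets (limma adjusted p = 0.0526). Dpp4, which encodes CD26, the surface docking protein of ADA in humans, rose, with 515, 373 and 379 in KO, 194, 255 and 245 in HET and 213, 242 and 157 in WT. Its log2 change was 1.05 (SE 0.19, limma adjusted p = 0.00287) for KO vs WT and 0.86 (limma adjusted p = 0.013) for KO vs HET. The KO vs HET call was lost with the mean of its probe sets and without KO replicate 1 or HET replicate 1 (limma adjusted p up to 0.0919). Ampd3, an AMP deaminase gene, rose with 158, 170 and 236 in KO, 118, 138 and 128 in HET and 114, 112 and 92.4 in WT. Its KO vs WT change was 0.80 (SE 0.19, limma adjusted p = 0.015), and the call was lost without KO replicate 3 or WT replicate 3 (limma adjusted p up to 0.0613). Over this list of 14 tested adenosine and salvage genes, 2 rose, 1 fell and 11 did not pass. That is 21.4% called, against 11.9% of all genes. Dpp4, 1 of the 2 that rose, is listed for its binding of ADA and is not a salvage enzyme. The brightest, Ahcy (-0.17, limma adjusted p = 0.215), and Hprt (-0.05, limma adjusted p = 0.701) were among those that did not pass.

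Of the other surface enzymes few were measurable. Alpl, the alkaline phosphatase gene and the only tested surface hydrolase of 8 listed, did not pass (0.65, limma adjusted p = 0.172). Among 4 tested relatives of CD39 and of the ENPP enzymes, Entpd7, a nucleotidase of internal membranes, rose, and Entpd5, Entpd6 and Enpp6 did not pass. Entpd7 gave 1340, 1512 and 1342 in KO, 1033, 1166 and 1116 in HET and 1135, 1097 and 1177 in WT, with a KO vs WT change of 0.30 (SE 0.08, limma adjusted p = 0.0293). That call was lost with array medians set equal (limma adjusted p = 0.145), with the mean of its probe sets (limma adjusted p = 0.327) and without KO replicate 2 or any 1 WT replicate. Of 2 tested genes of the ADP-ribosyltransferase family, Art4 fell and Art5 did not pass. Art4 gave 2.47, 18.3 and 4.20 in KO, 49.3, 51.2 and 49.2 in HET and 57.8, 62.6 and 35.9 in WT. It was below the array median on all KO arrays and on 1 WT array, so it was at least 1.06-fold lower in KO (limma adjusted p = 0.00397). Art4 passed the filter only through HET and WT arrays, where it was higher, so nothing is read from that p. It was not tested with the stricter filter of 6 of 9 arrays, under which 7 of 48 pathway genes rose and 4 fell. Of 3 tested nucleoside transporter genes 0 were called in KO vs WT (1 at an unadjusted p under 0.05), with Slc29a3 at 0.32 (limma adjusted p = 0.0644) and Slc29a1 at 0.29 (limma adjusted p = 0.485). Of 3 ATP release genes 0 were called as well (1 at an unadjusted p under 0.05), with the pannexin gene Panx1 at -0.26 (limma adjusted p = 0.0675) and the channel gene Lrrc8a at 0.02.

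P2ry10b and Gpr174, the next 2 protein-coding genes along chromosome X from P2ry10, encode receptors of the same lipid ligand family. Gpr174 gave 167, 176 and 188 in KO, 149, 132 and 136 in HET and 122, 86.6 and 121 in WT. The 3 groups did not overlap, and the KO vs WT change was 0.69 (SE 0.17, limma adjusted p = 0.0212). The call was lost without KO replicate 2, KO replicate 3 or WT replicate 2 (limma adjusted p up to 0.0833). P2ry10b did not pass (0.05, limma adjusted p = 0.935). Of the 5 tested genes for lysophosphatidylserine receptors and enzymes, 1 rose and 4 did not pass, including Abhd16a (-0.15, limma adjusted p = 0.308) and Abhd12 (-0.002, limma adjusted p = 0.996).

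The cyclic AMP pathway, which stimulatory adenosine receptors drive, held 18 tested genes, of which 3 rose, 3 fell and 12 did not pass in KO vs WT. That is 33.3% called, against 11.9% of all genes, and nothing is read from this share, since earlier results were known. The called genes were phosphodiesterases, which break down cyclic AMP, and 1 regulatory subunit of the cyclic AMP dependent kinase. Pde4b fell, with 2084, 1663 and 1617 in KO, 2770, 3191 and 2968 in HET and 3305, 3221 and 3216 in WT. No groups overlapped, and the change was -0.87 (SE 0.09, limma adjusted p = 5.49e-05) for KO vs WT and -0.74 (limma adjusted p = 2.70e-04) for KO vs HET. Pde7a fell by 0.25 on the log2 scale (SE 0.05, limma adjusted p = 0.0068), a call lost with the mean of its probe sets (limma adjusted p = 0.124). Pde3b fell by 0.40 (SE 0.12, limma adjusted p = 0.0444), a call lost under 10 of 19 alternatives, among them the omission of any KO or WT replicate or of HET replicate 2 (limma adjusted p up to 0.158). Pde8a rose, with 234, 240 and 136 in KO, 87.1, 79.4 and 99.2 in HET and 109, 87.3 and 97.1 in WT (KO vs WT 1.00, SE 0.23, limma adjusted p = 0.012). Pde4d rose, with 354, 299 and 222 in KO, 206, 217 and 153 in HET and 198, 133 and 133 in WT (KO vs WT 0.90, SE 0.21, limma adjusted p = 0.016). Both KO vs WT calls were lost without KO replicate 1, KO replicate 2 or WT replicate 2, that of Pde4d also without WT replicate 3 (limma adjusted p up to 0.0536 for Pde8a and 0.0688 for Pde4d). In KO vs HET Pde8a was called as well (1.14, limma adjusted p = 0.00764), and this call held under all 19 alternatives. Pde4d was not called in KO vs HET (0.59, limma adjusted p = 0.115). Prkar2b, the kinase subunit gene, rose with 194, 200 and 150 in KO, 64.9, 66.4 and 126 in HET and 69.6, 71.7 and 75.4 in WT (KO vs WT 1.29, SE 0.25, limma adjusted p = 0.00497). The KO vs HET change of Prkar2b was 1.12 (limma adjusted p = 0.0152), a call lost without KO replicate 1 or 2 or HET replicate 1 or 2 (limma adjusted p up to 0.0655). The brightest genes of the list, Akap13 (-0.08, limma adjusted p = 0.409) and Gnas, which encodes the stimulatory G protein subunit (-0.06, limma adjusted p = 0.461), did not pass. The marker sums given above, higher in KO than in WT for myeloid, marginal zone and plasma cell genes, stand beside the genes that rose, and their part was not tested.

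**Figure D4:**
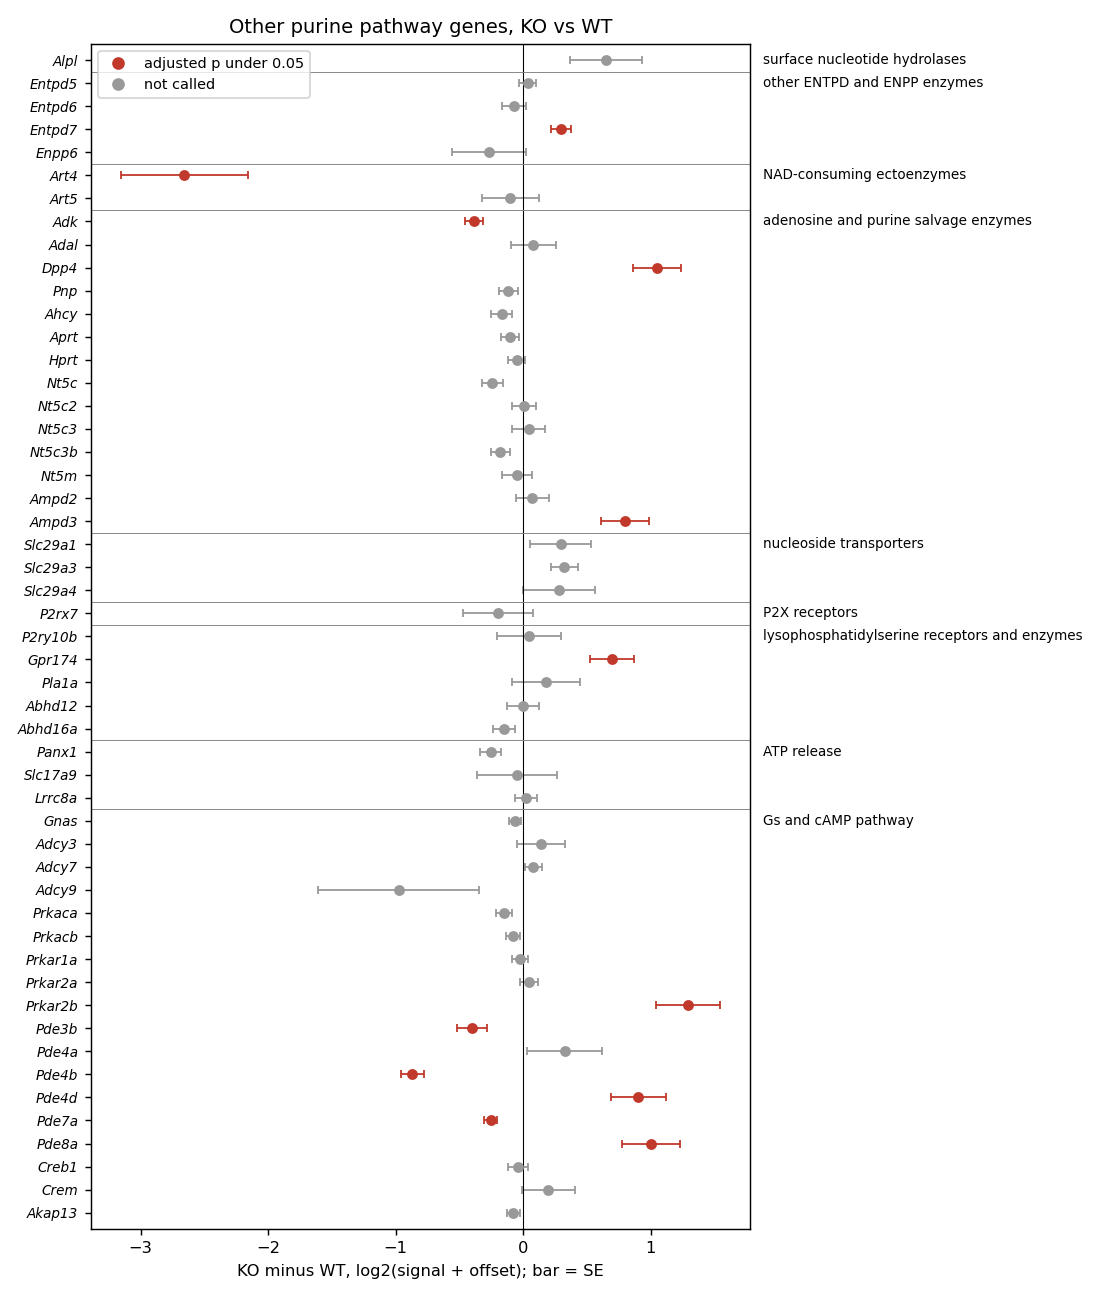
KO minus WT difference in log2(signal + offset) for the 51 tested genes of the purine lists, grouped by list; points are the fitted difference, bars its SE, and red marks an adjusted p under 0.05. The 12 red points lie on both sides of 0, with Art4 (dim in KO) and Pde4b lowest and Prkar2b and Dpp4 highest.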

How the data were processed

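The authors deposited linear intensity values, 1 MAS5 signal for each probe set of each array, made with MAS5, per the submitters' processing notes (version not given in the sources used here). The mean after trimming 2% at each end was 500 on all 9 arrays. Precision is limited by the number of arrays. Probe sets were named by the platform annotation: 34945 of the 45037 that are not controls had 1 symbol. Signals were analysed as log2(signal + 2.09), the 10th percentile, which understates changes of dim genes. Probe sets at or above their array's median on at least 3 of 9 arrays were kept, and the one with the highest mean stood for a gene, which left 10331 genes. limma 3.58.1 (lmFit, eBayes with trend, R 4.3.3) was fitted over all arrays, with two-sided Benjamini-Hochberg adjusted p under 0.05 over all genes. A group below the array median on all arrays was called dim there, with "at least" folds against it. The model was tested on simulated data. Alternatives were other filters, offsets, scalings, probe set summaries and eBayes options, Xist as a block and the omission of each array.

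The members and lists were chosen with earlier results of these data known. Named genes were the members, every list gene called in any contrast, up to 2 further genes per list with the highest mean, the 2 nearest profiles per member, Foxo1 and cell markers. Some listed genes were not analysed here. Per the labels each array is 1 animal, while the design text speaks of pools, so the spread may be partly technical.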

Additional observations from a re-analysis of the deposited data

How the results depend on the processing

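No paired analysis was possible, because the labels hold no pairing of arrays across genotypes. Replicate numbers count the arrays within a genotype and link none across genotypes. With array medians set equal, 2080 genes were called in KO vs WT (397 higher and 1683 lower, against 630 and 602) and 19 of the purine pathway genes, and the KO vs WT difference was -0.67 for Ada and -0.037 for P2ry10. With all probe sets of a gene averaged, it was -1.68 for Nt5e and 0.42 for P2rx4, and 4 pathway genes were called in KO vs HET, against 8. Leaving out 1 array in turn gave 768 to 1183 genes in KO vs WT (768 without WT replicate 3, 770 without WT replicate 2), 1 to 3 in HET vs WT and 543 to 895 in KO vs HET (543 and 606 without HET replicates 2 and 3). Among pathway genes it gave 7 to 12 in KO vs WT and 5 to 9 in KO vs HET. The HET vs WT count of 1 was 3 with robust eBayes and 2 with Xist as a block. Over 19 alternatives the KO vs WT difference of Nt5e lay between -2.01 and -1.68, that of Ada between -0.67 and -0.51 and that of P2rx4 between 0.16 and 0.42. The causes were not tested. Signals below the array median, as for Entpd1 on all arrays, set the limit of what could be measured.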
